A study of Mus musculus with 6 samples.

Results

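miRNAs best known from blood vessels and connective tissue were followed in T cell blasts and in small EVs pelleted from the medium of blast cultures. They were miR-143 with its neighbour miR-145a, miR-126a, and miR-199 with miR-214. Members were taken by name from the 451 miRNAs of the table of normalised counts, and 7 of the 9 names had a row: mmu-miR-143-3p, mmu-miR-145a-3p, mmu-miR-126a-5p, mmu-miR-126a-3p, mmu-miR-199a-3p, mmu-miR-199b-3p and mmu-miR-199a-5p. mmu-miR-145a-5p and mmu-miR-214-3p were not analysed here. The set was drawn up with the small EV to cell ratios of these libraries known, so those ratios are given below as a description, without a test. The data are 6 small RNA libraries, 3 of small EVs and 3 of T cell blasts, numbered 1, 2 and 5 in both groups. Both groups came from the same kind of culture, grown from spleens of C57BL/6 mice, wild type and 8 to 12 weeks old. Red cells were lysed, and the remaining splenocytes were stimulated in medium with FBS and 2 μg/ml concanavalin A, which drives T cells into division. From 36 h the washed cells were grown with 50 U/ml mrIL-2 in medium with EXO-free serum. The labels name no sorting of T cells, whereas the study's RNA methods speak of cells purified by flow cytometry, and whether these blasts were sorted is not given in the sources used here. Small EVs were pelleted at 100000 g from the medium of cultures at day 6.

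A miRNA is cut from a hairpin precursor, and either side of the hairpin, the 5p arm or the 3p arm, can be kept as the mature strand. The bases numbered 2 to 8, the seed, lead the pairing with target mRNAs. The precursors of miR-143 and miR-145 are neighbours and are known from smooth muscle cells, pericytes and fibroblasts. miR-126 lies within Egfl7, a gene of endothelial cells, and is the usual endothelial miRNA, although haematopoietic stem cells and megakaryocytes make it too. miR-199a and miR-214 are transcribed together from Dnm3os in mesenchymal cells.

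RefSeq (GRCm38.p6) held the mature sequences of 4 of the 7 members, which are shown because one of them occurs under several names. The seed is in capitals.
mmu-miR-126a-3p: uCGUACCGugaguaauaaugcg
mmu-miR-199a-3p: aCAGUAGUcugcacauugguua
mmu-miR-199b-3p: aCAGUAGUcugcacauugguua
mmu-miR-199a-5p: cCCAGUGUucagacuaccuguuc

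mmu-miR-199b-3p and mmu-miR-199a-3p are letter for letter the same 22 bases, so a read cannot be assigned to either of them by its sequence. Of the 370 listed miRNAs with a RefSeq sequence, these 2 were the only ones with the seed CAGUAGU, and mmu-miR-126a-3p (CGUACCG) and mmu-miR-199a-5p (CCAGUGU) each had a seed of their own. The shared 3p sequence stands in 3 precursors: Mir199a-1 on chromosome 9 (21496495 to 21496564, minus strand), Mir199a-2 on chromosome 1 (162217814 to 162217923, plus strand) and Mir199b on chromosome 2 (32318460 to 32318569, plus strand). The hairpins of the miR-199a pair are printed to show where both arms lie, with the 5p arm and then the 3p arm in capitals.
Mir199a-1: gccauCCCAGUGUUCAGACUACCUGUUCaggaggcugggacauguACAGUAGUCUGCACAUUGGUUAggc
Mir199a-2: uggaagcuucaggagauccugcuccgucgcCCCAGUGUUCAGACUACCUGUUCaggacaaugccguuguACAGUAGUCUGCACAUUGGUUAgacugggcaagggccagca

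In the GENCODE annotation of GRCm38, Mir199a-1 lay within Dnm2, Mir199a-2 within Dnm3 and Mir199b within Dnm1, which encode dynamins, in each case on the opposite strand and outside their exons. Mir199a-2 was exonic in the noncoding Dnm3os on its own strand. Mir126a lay on chromosome 2 (26591357 to 26591429, plus strand) within Egfl7 on the same strand. Among Egfl7 transcripts it met exons only of the retained intron type. It also lay within the protein-coding entry Gm20532, on the same strand and outside its exons. Mir143 and Mir145a lay on chromosome 18 with 1301 bases between them.

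Depth sets what can be said of the rarer members. The libraries held 463498, 433602 and 261393 reads in small EVs 1, 2 and 5, against 275708, 279737 and 236432 reads in T cell blasts 1, 2 and 5. Values are CPM, read counts scaled by the authors to library size, and 1 read was worth 2.09 to 3.47 CPM in a small EV library, against 3.67 to 4.79 CPM in a blast library. A count of 0 allows up to 3 reads, 6.28 to 10.4 CPM in a small EV library, 11.0 to 14.4 CPM in a blast library and 4.01 CPM over the blasts together. These limits and the intervals below cover counting error only.

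In all 7 members the lowest small EV library lay above the highest library of T cell blasts, and 92 of all 451 miRNAs (20.4%) had groups that did not overlap in this direction. Since the members were chosen on this contrast, nothing follows from that count. For 4 of them, mmu-miR-145a-3p and the 3 miR-199 entries, the direction was also fixed by the table itself: the authors kept miRNAs with at least 1 CPM in at least 3 libraries, and these 4 had no read in any blast library. They are among 22 miRNAs of the table of which this holds. The other 3 members had reads in blasts. Both miR-126a arms passed that filter in the blasts alone. mmu-miR-143-3p, with no read in T cell blasts 5, passed it only with the help of small EV libraries. In bulk libraries, more vesicles or cells of a type and more of a miRNA in each cannot be told apart.

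**Figure D1:**
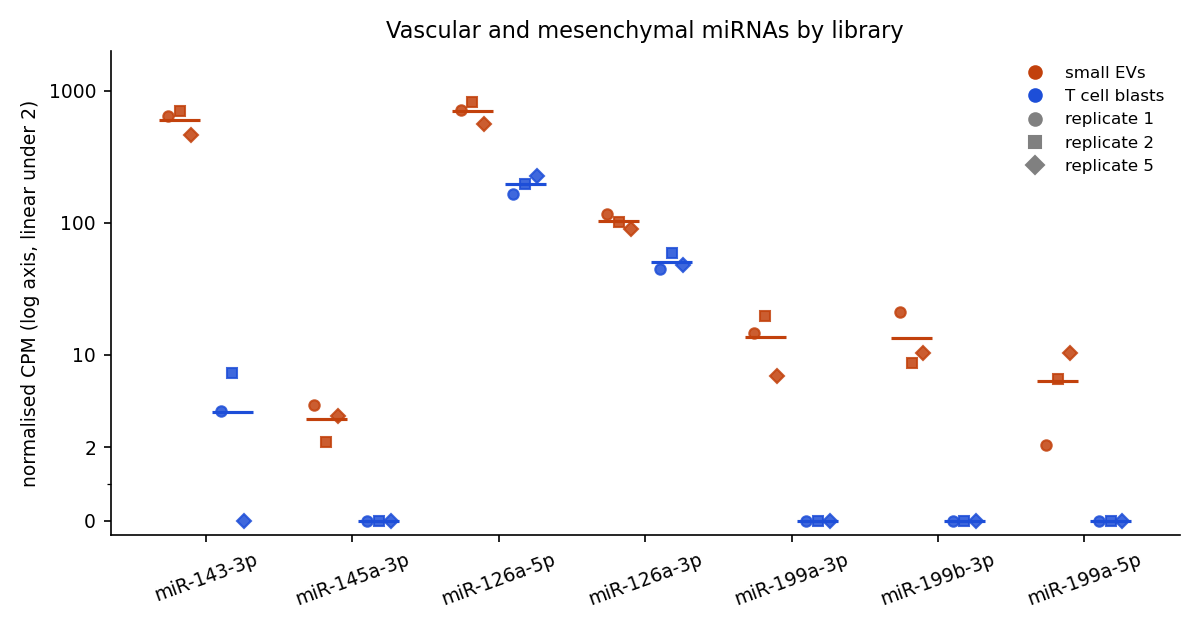
Normalised CPM (vertical axis, logarithmic above 2 CPM and linear below) of the 7 members, with small EVs to the left of T cell blasts; each symbol is a library and the bar is the group mean. The small EV symbols lie above all blast symbols for each member, with the narrowest ratio among members that had blast reads for miR-126a-3p (90.3 CPM in the lowest small EV library, 58.7 CPM in the highest blast library).

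The members covered a wide range of levels. In small EVs, mmu-miR-126a-5p came highest with 699 ± 130 CPM (SD, n = 3), and mmu-miR-143-3p followed with 599 ± 125 CPM (SD, n = 3). These neighbours overlapped across libraries. Then came mmu-miR-126a-3p with 103 ± 13.6 CPM, the summed miR-199 3p entries with 27.1 ± 9.19 CPM, mmu-miR-199a-5p with 6.35 ± 4.16 CPM and mmu-miR-145a-3p with 3.28 ± 1.02 CPM (SD, n = 3 each). Of these neighbours, only mmu-miR-199a-5p and mmu-miR-145a-3p overlapped. In blasts the order differed: mmu-miR-126a-5p had 196 ± 30.1 CPM, mmu-miR-126a-3p 50.5 ± 7.22 CPM and mmu-miR-143-3p 3.69 ± 3.67 CPM (SD, n = 3 each), with no overlap between these 3, and the others were at 0. By mean level among all 451 miRNAs, mmu-miR-143-3p thus ranked 80 in small EVs and 353 in blasts, whereas mmu-miR-126a-5p ranked 76 and 113. All 7 members together took 0.126 to 0.175% of the reads of a small EV library and 0.0207 to 0.0257% of those of a blast library. Mature miRNAs are of much the same length, so no correction for length was made, but library preparation does not capture all miRNAs equally, and levels of different miRNAs carry that limit.

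mmu-miR-143-3p, known for holding smooth muscle cells in their contractile state, was abundant in small EVs and close to absent from the reads of T cell blasts. It had 641, 697 and 458 CPM in small EVs 1, 2 and 5, against 3.75, 7.33 and 0 CPM in T cell blasts 1, 2 and 5. In reads this was 306, 319 and 132 in small EVs against 1, 2 and 0 in blasts. Small EVs 5, the shallowest of its group, was the lowest of its group, with 458 CPM where the highest blast library had 7.33 CPM. Pooled, 757 reads stood against 3, which is 154-fold (95% counting interval 52.6 to 751). At the level of the small EVs, the depth of the blasts would have given 463 reads where 3 were found. The difference on the log2(CPM + 1) scale was 7.44 (standard error 0.73, limma). It was 6.55 without T cell blasts 5 and 8.08 without T cell blasts 2, so its size rests on 3 blast reads.

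mmu-miR-145a-3p, the 3p arm of the neighbouring precursor, was barely seen. It had 2, 1 and 1 reads in small EVs 1, 2 and 5, worth 4.19, 2.18 and 3.47 CPM, and none in T cell blasts. At that level the blasts would have given 2.45 reads, fewer than a count of 0 allows, so a difference was not detectable at this depth. The usual mature strand of miR-145 is the 5p arm, which is not among the rows used here. The 757 small EV reads of mmu-miR-143-3p and the 4 of mmu-miR-145a-3p therefore do not compare the output of the precursors.

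miR-126a was the one precursor with both arms well above the floor in both groups. mmu-miR-126a-5p had 714, 821 and 562 CPM in small EVs 1, 2 and 5, against 165, 198 and 225 CPM in T cell blasts 1, 2 and 5. The groups lay well apart, with the lowest small EV library at 562 CPM and the highest blast library at 225 CPM. Pooled over 879 and 145 reads, the ratio of small EVs to blasts was 3.71 (95% counting interval 3.11 to 4.45). Within replicate numbers it was 4.33, 4.15 and 2.50 for 1, 2 and 5. The 3p arm, mmu-miR-126a-3p, which in endothelial cells represses Spred1 and so favours VEGF signalling, was lower in both groups. It had 117, 100.5 and 90.3 CPM in small EVs 1, 2 and 5, against 45.0, 58.7 and 47.9 CPM in T cell blasts 1, 2 and 5. The ratio was 2.06 (1.43 to 3.04) over 128 and 38 reads, and 2.61, 1.71 and 1.89 within numbers 1, 2 and 5. On the log2(CPM + 1) scale the difference was 1.82 (standard error 0.20, limma) for the 5p arm and 1.01 (standard error 0.25) for the 3p arm, with no blast library at 0 for either.

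The 5p arm of miR-126a outnumbered the 3p arm in each of the 6 libraries. This comparison lies within libraries and does not use the contrast by which members were chosen. The log2 ratio of mmu-miR-126a-5p to mmu-miR-126a-3p averaged 2.75 ± 0.24 in small EVs (SD, n = 3; 6.71-fold; exact sign-flip permutation test, 2-sided p = 0.25) and 1.93 ± 0.25 in T cell blasts (SD, n = 3; 3.82-fold; exact p = 0.25). No smaller p is possible with 3 libraries. The 5p arm took 341 of 397 reads (85.9%), 376 of 422 (89.1%) and 162 of 188 (86.2%) in small EVs 1, 2 and 5, against 44 of 56 (78.6%), 54 of 70 (77.1%) and 47 of 57 (82.5%) in T cell blasts 1, 2 and 5. The lowest share in small EVs thus lay above the highest in blasts, although the exact 95% intervals of single libraries overlapped between the groups. Pooled by group it was 87.3% (85.1 to 89.3%, Clopper-Pearson) in small EVs and 79.2% (72.6 to 84.9%) in T cell blasts. These pooled intervals count reads and leave out the spread between libraries, so no comparison of the groups is drawn from them. The difference of the log2 ratios, 0.81, comes from the contrast by which members were chosen and was not tested.

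**Figure D2:**
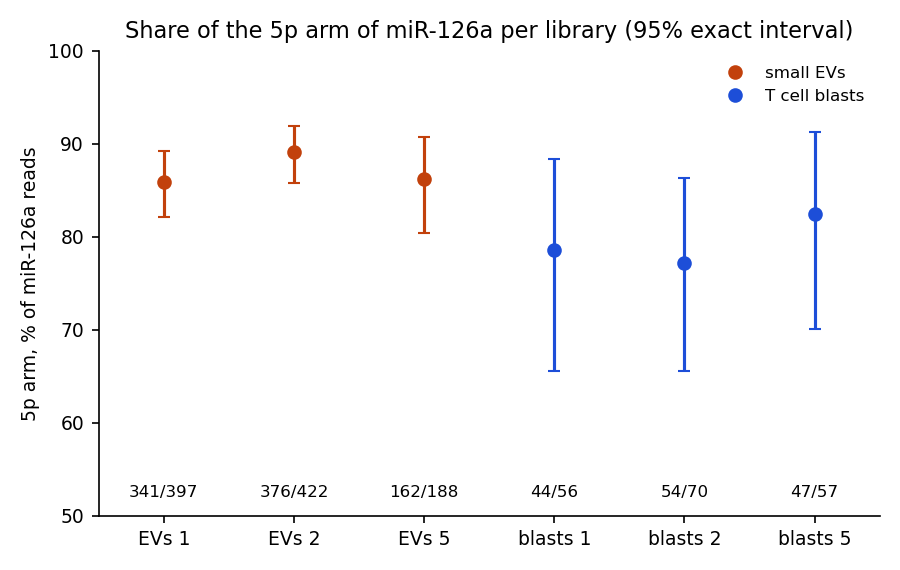
Share of the 5p arm among the reads of both arms of miR-126a (vertical axis, percent, from 50 to 100) in each small EV and T cell blast library; bars are exact 95% counting intervals and the numbers below are 5p reads of all reads. The small EV points lie between 85.9 and 89.1% and the blast points between 77.1 and 82.5%.

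The miR-199 entries were seen in small EVs and not in T cell blasts. mmu-miR-199a-3p had 7, 9 and 2 reads (14.7, 19.7 and 6.94 CPM) in small EVs 1, 2 and 5, and mmu-miR-199b-3p had 10, 4 and 3 reads (20.9, 8.74 and 10.4 CPM), against no read in any blast library. Since the sequences printed above are identical, the split between these rows carries no information on their precursors. Over the small EVs it was 18 reads to 17, so that the row of mmu-miR-199a-3p held 51.4% (34.0 to 68.6%, Clopper-Pearson) of the 35. Summed, the shared sequence had 35.6, 28.4 and 17.4 CPM in small EVs 1, 2 and 5, a spread (SD) of 33.9% of the mean where the separate rows had 46.6% and 49.5%. At the summed level the blasts would have given 21.4 reads. Set against a floor of 3 reads over the blast group, the small EV value of the sum was 7.14-fold higher. The ratio to the floor was 3.67-fold for mmu-miR-199a-3p alone and 3.47-fold for mmu-miR-199b-3p alone. Such ratios take the small EV reads as found and leave out their counting error, so they are not strict lower bounds.

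mmu-miR-199a-5p, the other arm of the miR-199a hairpins, had 1, 3 and 3 reads in small EVs 1, 2 and 5 (2.09, 6.55 and 10.4 CPM) and none in T cell blasts. Unlike the other members with more than 5 small EV reads, it was highest in small EVs 5. Against the same floor its small EV value was 1.43-fold higher, and at that level the blasts would have given 4.28 reads. This leaves out the counting error of the 7 small EV reads, so a difference is not shown. Of the 42 small EV reads of miR-199, 7 came from this 5p arm (16.7%, 6.97 to 31.4%, Clopper-Pearson), whereas the 5p arm led for miR-126a. The arms of miR-199a cannot be compared strictly, because part of the 3p reads may come from Mir199b.

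**Figure D3:**
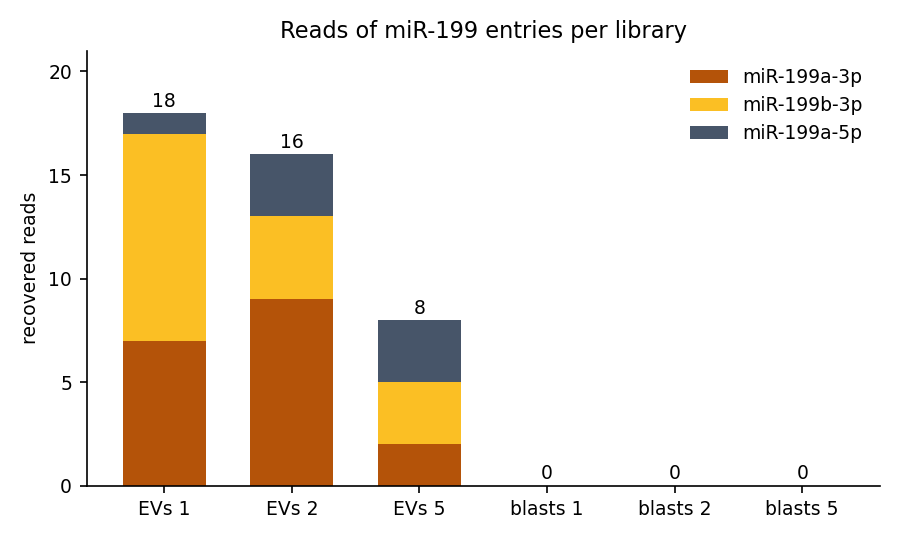
Recovered reads (vertical axis) of mmu-miR-199b-3p, mmu-miR-199a-3p and mmu-miR-199a-5p, stacked, in each small EV and T cell blast library. The totals are 18, 16 and 8 in small EVs 1, 2 and 5 and 0 in each blast library, and the 2 rows of the identical 3p sequence take changing shares.

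Set side by side, as a description of ratios that chose the members, the counting interval of mmu-miR-143-3p (52.6 to 751) lay wholly above those of mmu-miR-126a-5p (3.11 to 4.45) and mmu-miR-126a-3p (1.43 to 3.04). These intervals leave out the spread between libraries. Across replicate numbers the ratios of the miR-126a arms overlapped (2.50 to 4.33 for the 5p arm, 1.71 to 2.61 for the 3p arm). Within each number the 5p arm had the higher ratio (4.33 against 2.61, 4.15 against 1.71 and 2.50 against 1.89 for 1, 2 and 5), which was not tested. In limma, 7 of 7 members were called higher at an adjusted p under 0.2, the threshold of the study's methods, beside 95 of all 451 miRNAs (21.1%), a count from which nothing is read because the contrast chose the members. The call of mmu-miR-145a-3p rests on 4 reads and does not show a difference. With members that had no blast reads placed at the floor, the median log2 ratio of the 7 was 1.79, against -0.06 over all 451. That median falls on mmu-miR-199b-3p, so it is set by the floor and is not a measured ratio. The shared 3p sequence also enters it under both of its names. mmu-miR-5099, a single entry, took 12.4 to 14.2% of the summed CPM in blasts and 1.88 to 4.16% in small EVs, which bears on the scaling of all others. Over 3 other scalings, the difference of mmu-miR-126a-3p ran from 0.84 to 1.18, and that of mmu-miR-126a-5p from 1.65 to 2.00, while the median of all 451 miRNAs ran from -0.14 to 0.19.

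**Figure D4:**
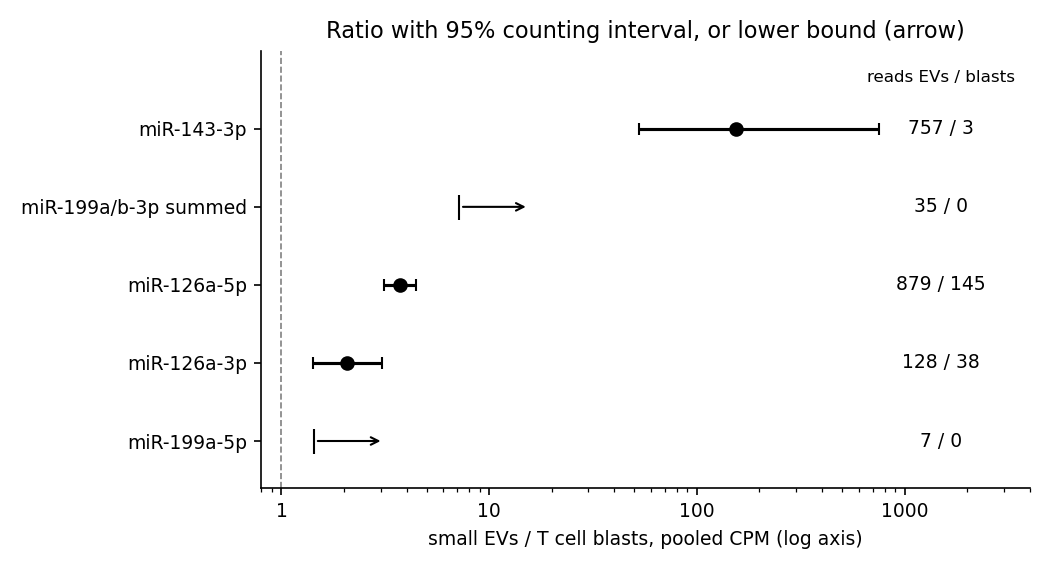
Ratio of small EVs to T cell blasts in pooled CPM (horizontal axis, logarithmic). Points carry 95% counting intervals, and the dashed line marks equal values. Arrows, titled lower bound, start at the ratio to a floor of 3 reads over the blasts. That ratio leaves out the counting error of the small EV reads. miR-143-3p stands at 154, and the arms of miR-126a at 3.71 and 2.06. The arrows start at 7.14 for the summed miR-199 3p sequence and at 1.43 for miR-199a-5p. miR-145a-3p, with 4 reads, has no ratio to the floor above 1 and is not drawn.

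The profiles most like those of the leading members differed as well. Likeness was measured as the Euclidean distance between log2(CPM + 1) profiles over the 6 libraries, each centred on its mean, among the other 283 miRNAs with a mean of at least 10 CPM. It is a description of libraries that share depth and scaling. Nearest to mmu-miR-143-3p were mmu-miR-10b-5p (distance 2.86), mmu-miR-100-5p (3.18), mmu-miR-125b-5p (3.45), mmu-miR-127-3p (3.70) and mmu-miR-212-3p (3.99). Of these, mmu-miR-10b-5p, whose gene sits in a Hox cluster, had 3517, 3931 and 1944 CPM in small EVs 1, 2 and 5, against 18.7, 22.0 and 33.5 CPM in T cell blasts 1, 2 and 5. Like mmu-miR-143-3p, it was lowest in small EVs 5. In blasts, mmu-miR-125b-5p had no read and mmu-miR-100-5p had 2, both in T cell blasts 2, so their blast profiles lie near the floor. A high ratio of small EVs to blasts is built into the choice of all 5 neighbours of mmu-miR-143-3p. Nearest to mmu-miR-126a-5p were mmu-miR-146a-5p (0.46), mmu-miR-155-5p (0.96), mmu-miR-132-3p (1.02), mmu-miR-146b-5p (1.02) and mmu-miR-212-5p (1.04). mmu-miR-146a-5p, a miRNA of activated lymphocytes, had 5115, 6703 and 5545 CPM in small EVs 1, 2 and 5, against 1749, 1580 and 1967 CPM in blasts 1, 2 and 5. Their ratios of small EVs to blasts were 2.39 to 4.70, and a ratio near the 3.71 of mmu-miR-126a-5p is built into their choice, since the contrast between the groups enters the profile.

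**Figure D5:**
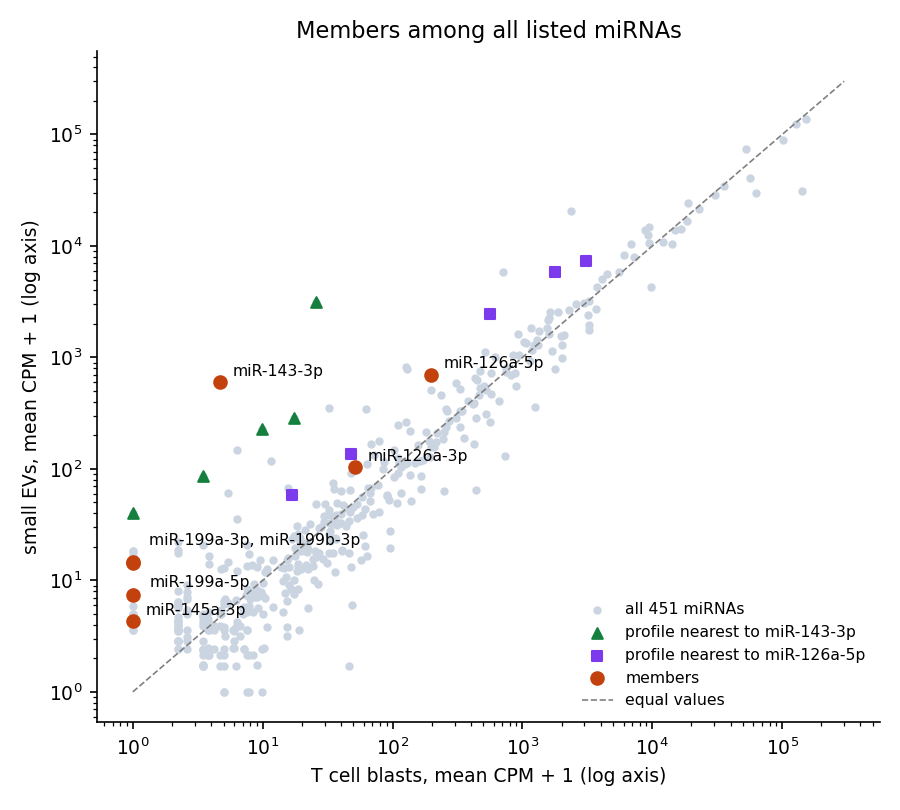
Mean CPM + 1 in small EVs (vertical axis) against T cell blasts (horizontal axis), both logarithmic, for all 451 miRNAs; circles mark the 7 members, triangles and squares the 5 profiles nearest to miR-143-3p and to miR-126a-5p. miR-143-3p (599 against 3.69 CPM) and its neighbours stand far above the line of equal values, miR-126a-5p (699 against 196 CPM) and its neighbours closer to it, and 4 members lie on the left edge at 0 in blasts.

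Other miRNAs known from endothelial cells, smooth muscle or fibroblasts did not all share the direction of the members. Some of them were abundant in T cell blasts too (values below), so they are not particular to those cells. Of 33 on a list that leaves the members out, 22 were measured. Over all 451 miRNAs, 95 (21.1%) were called higher in small EVs and 56 (12.4%) lower. Of the 22 on the list, 9 were called higher, 1 was lower and 12 did not pass. Their median difference was 0.80 on the log2(CPM + 1) scale, beside 0.02 over all 451, and 3 of the 22 had no blast reads. With these at the floor, the median log2 ratio was 0.55, beside -0.06 over all 451. The 3 with no blast reads are among the 9 called higher, and the filter fixed their direction, as it did for 4 of the members. Of the 9, mmu-miR-100-5p and mmu-miR-130a-3p, each with reads in 1 blast library, passed it only with the help of small EVs. The list was also set with results known, so its counts are no independent evidence. Of its 6 most abundant miRNAs in small EVs, 3 were called higher (mmu-miR-10a-5p, mmu-miR-10b-5p and mmu-miR-140-3p) and 3 were not called. mmu-miR-27b-3p had 89325 CPM in small EVs and 101934 CPM in blasts on average (pooled ratio 0.876), mmu-miR-22-3p had 24194 and 18760 CPM (1.30), mmu-miR-140-3p, a miRNA of cartilage, had 2541 and 1888 CPM (1.36), and mmu-miR-23b-3p had 1160 and 1185 CPM (1.02). The remaining 2 were the related mmu-miR-10a-5p, with 5815 CPM in small EVs and 702 CPM in blasts (8.50), and mmu-miR-10b-5p (137). mmu-miR-27b-3p, mmu-miR-23b-3p and both miR-10 entries have close paralogs whose reads alignment may mix. The lower member was mmu-miR-322-5p, with 189 CPM in small EVs and 355 CPM in blasts.

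Markers of further cell types were read in the same libraries. For the counts of calls below, 21.1% of all 451 miRNAs were called higher in small EVs and 12.4% lower. Lymphoid miRNAs summed to 73598 to 99072 CPM in small EVs, against 89252 to 110719 CPM in T cell blasts, with all 7 measured and none at 0, led in small EVs by mmu-miR-142a-5p and mmu-miR-342-3p. Of these 7, 4 were called higher in small EVs (mmu-miR-155-5p, mmu-miR-146a-5p, mmu-miR-181a-5p and mmu-miR-342-3p), 2 were lower (mmu-miR-142a-3p and mmu-miR-142a-5p) and 1 was not called, with a median log2 difference of 0.64. All 5 red cell miRNAs were measured and called higher in small EVs, and their sums were 1215 to 1861 CPM in small EVs, against 246 to 258 CPM in blasts. The leading entries were mmu-miR-486b-5p (pooled ratio 6.34) and mmu-miR-486a-5p (6.86), which had reads in blasts. Alignment may not separate this pair, which had 995 and 1042 reads in small EVs and 96 and 93 in blasts. The 5 calls may therefore count 1 measurement under 2 names. The defining mmu-miR-451a, mmu-miR-144-3p and mmu-miR-144-5p were at 0 in blasts, with mmu-miR-451a at 29.3, 8.74 and 13.9 CPM in small EVs 1, 2 and 5. The filter fixed the direction of these 3, as it did for 4 of the members. Of 4 myeloid and platelet miRNAs, only mmu-miR-223-3p was measured, with 15.3 to 20.9 CPM in small EVs, against 0 to 3.67 CPM in blasts. Epithelial miRNAs (6 of 7 measured, 1 called higher) summed to 437 to 487 CPM in small EVs, with blasts at 367 to 374 CPM. Those of liver and muscle (2 of 5 measured, none called) summed to 865 to 1773 CPM in small EVs, with blasts at 828 to 1543 CPM. Nearly all of this was mmu-miR-192-5p, with 1703, 1773 and 858 CPM in small EVs 1, 2 and 5. The other, mmu-miR-133a-3p, had 4 small EV reads and 1 blast read and is also on the vascular and mesenchymal list. The part of these cell types in the members' values was not tested.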

How the data were processed

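Small RNA libraries were sequenced from one end over 75 bp. The authors trimmed them with Cutadapt, dropped reads under 20 bp or untrimmed, mapped what was left to the mature mouse entries of miRBase 21 (the methods name bowtie or BWA, the submitters' processing notes BWA, RSEM 1.17 and CASAVA 1.8.2) and quantified them with RSEM. The deposited signal is CPM after TMM scaling in edgeR (log-ratio trim 0.4), summing to 907580 to 1131533 per library, with no genome build involved. Alignment to mature sequences cannot separate identical strands.

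Dividing by the smallest value of a library gave whole reads for 100% of values (within 0.05 of a read), and these reads were used. Differences are small EVs minus T cell blasts on log2(CPM + 1), fitted over all 451 miRNAs with limma 3.58.1 (R 4.3.3, trend, no block, Benjamini-Hochberg adjusted p under 0.2), checked on simulated counts. Because the table holds CPM, a count test was an alternative: edgeR 4.0.16 on the recovered reads called 82 higher and 61 lower. Other alternatives were DESeq2 1.42.0, pseudocounts of 0.5 and 5, 3 other scalings, a filter at a mean of 10 CPM, the replicate block, a threshold of 0.05 and each library left out. Intervals of ratios and shares are exact binomial (95%, SciPy 1.17.1).

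Deviations from the group means correlated between libraries of 1 number (r = 0.15, 0.16 and 0.34 for 1, 2 and 5 across 284 miRNAs), each over 0.1. Small EVs 1 with T cell blasts 2 (0.17) and small EVs 2 with T cell blasts 1 (0.11) did too, so these values cannot show whether numbers 1 and 2 are pairs. Number 5 stood apart, with negative values against the other numbers. Deviations from a mean of 3 libraries sum to 0, so given the positive value within number 5 these negative values add little. The fit without the block was kept for the standard errors and calls, and the closing section gives the counts with it. The labels do not state a pairing. Replicates are described as independent experiments. Members, lists and tests were chosen with earlier results of these data known. Named miRNAs are the members, the 5 nearest profiles of mmu-miR-143-3p and mmu-miR-126a-5p, the 6 most abundant of the vascular and mesenchymal list and leading cell type markers. Added after their values were seen were mmu-miR-322-5p, mmu-miR-130a-3p, mmu-miR-451a, mmu-miR-144-3p, mmu-miR-144-5p and mmu-miR-5099.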

Additional observations from a re-analysis of the deposited data

How the results depend on the processing

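The 95 higher and 56 lower calls over all miRNAs became 106 and 73 in limma with the replicate block and 84 and 70 in edgeR with it. With fewer miRNAs tested, at a mean of at least 10 CPM, 61 were higher, DESeq2 called 63 higher, and an adjusted p under 0.05 gave 58 and 29. Without one library there were 77 to 103 higher and 46 to 67 lower. Rescaling to an equal sum gave 110 and 48, and to miRNAs under 5% of every library 81 and 78. In limma, the replicate block left the log2 differences of the members as they were. For mmu-miR-143-3p the difference was 6.19 with a pseudocount of 5 and 6.55 to 8.08 without one library. The summed miR-199 3p sequence, 4.76 on this scale, was 5.73 with a pseudocount of 0.5 and 2.64 with 5, and its rows alone gave 3.78 and 3.75, which shows that a fitted difference against blasts at 0 depends on the pseudocount. Without one library it was 4.54 to 5.04. The log2 ratio of the miR-126a arms was 2.61 to 2.82 in small EVs and 1.79 to 2.03 in T cell blasts without one library. None of these alternatives turned the direction of a member, which the choice of members had fixed. Depth limits mmu-miR-145a-3p and mmu-miR-199a-5p most, with 4 and 7 reads in small EVs.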
